A study of Mus musculus with 6 samples.

Results

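Alcohol dehydrogenases turn alcohols into aldehydes, and aldehyde dehydrogenases turn aldehydes into acids. Described here are 10 genes of both families in mouse liver: Adh1, Adh4 and Adh5 of the first, and Aldh2, Aldh1b1, Aldh1a1, Aldh1a7, Aldh3a2, Aldh1l1 and Aldh9a1 of the second. They were listed by name with earlier results of these data known, were matched in the table by that name alone, and are 10 of the 54532 genes in the table. All 10 passed the filter on low values (mean over the 6 livers not under 0.5 FPKM), as did 12022 genes in all. FPKM counts sequenced fragments relative to gene length and to a scale of the library, here one from median gene ratios rather than total reads. It is thus a level per length of the gene as annotated in the table, and that length can exceed a transcript's. For Adh5 it was 5408 bases, against 1604 in its longest coding transcript, and for Aldh1a1 4934 against 2358. For Adh4 it was 1450 against 1314, and for Aldh1a7 2066 in both. Levels of different genes, their order and the size of their ratios therefore depend in part on these lengths.

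Whole-liver RNA was sequenced in 3 samples from untreated mice labelled as hepatocyte Notch1 knockouts and in 3 samples from untreated control mice with the genotype Notch1fl/fl, a floxed allele with no deletion stated. The question of the series is the role of Notch1 in making thrombopoietin in liver, the hormone of platelet formation. The sources used here give no Cre driver, strain, age or sex, and do not say whether the samples came from separate animals or from litter mates. Each sample is called a liver below. Columns headed NC were read as controls because no other group remains, so every control value rests on that reading.

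Libraries held 15612924 to 17511961 reads in genes for the knockouts and 16053926 to 16809352 for the controls, as recovered from the FPKM values. Notch1 measured 0.301, 0.540 and 0.292 FPKM in knockouts 1 to 3, against 0.618, 0.965 and 0.854 in controls 1 to 3, lower in each knockout than in any control, with a limma adjusted p of 0.257. The value adds all exons and all liver cells and is therefore no direct measure of the deletion in hepatocytes. All 15 genes of a hepatocyte marker list were expressed, with a summed level of 47038 to 60528 FPKM in the knockouts and 64291 to 73273 FPKM in the controls. In whole tissue, fewer cells of a type and less RNA per cell cannot be told apart. Knockout 2 stood apart in genes that depend on pulsed growth hormone, and knockouts 1 and 3 in acute phase genes. Markers of mesothelium, the cell layer covering the liver, had higher means in the knockouts in all 19 tested of 21, with 0 past the adjusted threshold and 0 of the 21 listed at 0 in every liver. Their summed level was 510.2 to 799 FPKM in the knockouts and 207 to 383 FPKM in the controls.

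In liver, ethanol is oxidised in the cytosol by Adh1, the class I enzyme, and the acetaldehyde formed passes mostly into mitochondria, where Aldh2 turns it into acetate. The same 2 steps carry vitamin A: retinol is oxidised to retinal, and Aldh1a1 turns retinal into retinoic acid. Other members have their own substrates. Adh5 removes formaldehyde bound to glutathione, Aldh3a2 oxidises long-chain fatty aldehydes, Aldh1l1 releases carbon from 10-formyltetrahydrofolate, and Aldh9a1 makes a precursor of carnitine.

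In both groups of means the order of levels was the same: Adh1, Aldh2, Aldh1a1, Aldh1l1, Aldh1a7, Adh4, Adh5, Aldh9a1, Aldh3a2 and Aldh1b1. That order is one of FPKM and rests on the annotated gene lengths. Adh1 was highest in all 6 livers and ranked 77 among all genes by mean level, and Aldh1b1 was lowest of the 10 in all 6. Neighbours in that order whose means lay within the larger of their SDs in both groups were Aldh1a1 and Aldh1l1 (245 ± 97.7 and 229 ± 11.9 FPKM in knockouts, 256 ± 17.9 and 243 ± 12.2 in controls) and Adh5 and Aldh9a1 (80.6 ± 11.1 and 72.6 ± 6.45 FPKM in knockouts, 89.4 ± 9.66 and 85.7 ± 1.67 in controls). In the knockouts alone this also held for Aldh2 and Aldh1a1, and for Adh4 and Adh5. The 10 genes summed to 2087, 2025 and 1720 FPKM in the knockouts and 1936, 2080 and 2026 FPKM in the controls. Each member rested on 630 to 42444 reads per library.

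Some of these genes lie in clusters in the genome, and their promoters are shown because livers in which genes of 1 cluster diverged are described further on. Adh1, Adh4 and Adh5 stand in that order on the plus strand of chromosome 3 (GRCm38, 138260991 to 138290698, 138415466 to 138430892 and 138443093 to 138455499). Between Adh1 and Adh4 lie Adh6a and Adh6b, at or below 0.142 FPKM in every liver, and Adh7, an enzyme known from stomach, lies 27608 bases before Adh1 at 3.40 to 5.03 FPKM in the knockouts and 4.42 to 7.34 FPKM in the controls. The windows below are from RefSeq (GRCm38.p6, 5′ to 3′), 250 bases before to 50 bases after a transcript start, with motif matches in capitals. They are chr3:138277335-138277634 for Adh1, which lies within the gene span because the table's gene starts further upstream, chr3:138415247-138415546 for Adh4, and chr3:138442843-138443142 for the more downstream of the 2 Adh5 windows.
Adh1: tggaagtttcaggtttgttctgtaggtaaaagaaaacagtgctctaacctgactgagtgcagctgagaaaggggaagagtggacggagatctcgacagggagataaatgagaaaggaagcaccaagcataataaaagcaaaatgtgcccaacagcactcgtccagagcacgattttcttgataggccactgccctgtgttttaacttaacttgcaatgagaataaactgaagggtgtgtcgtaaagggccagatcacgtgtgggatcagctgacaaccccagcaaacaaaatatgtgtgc
Adh4: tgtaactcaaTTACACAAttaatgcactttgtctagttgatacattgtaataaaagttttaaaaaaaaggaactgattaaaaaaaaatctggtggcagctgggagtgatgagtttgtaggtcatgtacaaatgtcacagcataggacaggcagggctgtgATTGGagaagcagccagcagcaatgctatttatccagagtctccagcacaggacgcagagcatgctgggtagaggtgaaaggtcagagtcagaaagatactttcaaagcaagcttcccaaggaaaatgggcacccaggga
Adh5: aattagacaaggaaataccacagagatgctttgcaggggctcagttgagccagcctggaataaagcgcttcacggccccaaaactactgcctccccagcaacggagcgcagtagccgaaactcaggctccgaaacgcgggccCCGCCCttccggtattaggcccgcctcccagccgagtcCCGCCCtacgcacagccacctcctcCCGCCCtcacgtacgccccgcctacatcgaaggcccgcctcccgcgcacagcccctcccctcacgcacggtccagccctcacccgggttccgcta
The motifs searched on both strands, with overlaps counted separately, were the TATA box as TATAAA, the CCAAT box as CCAAT, the GC box as GGGCGG, the STAT5 type as TTCNNNGAA and the C/EBP type as TTNNGNAA. The Adh1 window held none of these letters. The Adh4 window held 1 CCAAT, found in 37.4% of 32851 RefSeq windows, and 1 C/EBP-type match, found in 40.7%. The Adh5 window held 3 GC boxes, found in 35.7% of windows, and 26 CG dinucleotides, where the median window has 7. A match describes letters only.

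Aldh1a1 and Aldh1a7, a rodent copy of it, face each other on chromosome 19 (20492715 to 20643462 on the plus strand and 20692953 to 20727562 on the minus strand), 49490 bases apart. Of the 50-base windows of the Aldh1a7 transcript in GENCODE M21, 151 of 2017 (7.49%) also occur in Aldh1a1. Part of their reads could therefore be shared, and the counting of such reads is not stated, so both values carry that uncertainty. No other pair of members shared any such window. The promoter windows of both genes are shown with the longest run of identical bases, 65, in capitals (chr19:20601718-20602017 on the plus strand, the more downstream of the 2 Aldh1a1 windows, and chr19:20727507-20727806 on the minus strand).
Aldh1a1: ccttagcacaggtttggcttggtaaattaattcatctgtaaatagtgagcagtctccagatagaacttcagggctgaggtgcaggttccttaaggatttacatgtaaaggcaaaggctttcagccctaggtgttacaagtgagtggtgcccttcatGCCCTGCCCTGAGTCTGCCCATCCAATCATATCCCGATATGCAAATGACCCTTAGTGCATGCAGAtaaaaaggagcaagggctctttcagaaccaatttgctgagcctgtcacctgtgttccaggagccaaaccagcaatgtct
Aldh1a7: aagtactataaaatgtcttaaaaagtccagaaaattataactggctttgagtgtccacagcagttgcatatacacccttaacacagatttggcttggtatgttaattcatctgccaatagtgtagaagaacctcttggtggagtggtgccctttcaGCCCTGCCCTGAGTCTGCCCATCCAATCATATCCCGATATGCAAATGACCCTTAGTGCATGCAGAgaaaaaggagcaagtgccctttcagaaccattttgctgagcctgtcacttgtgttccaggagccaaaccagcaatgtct
In a global alignment 70.8% of columns were identical, and of the last 150 bases, which run across the start site, 142 were identical without gaps (94.7%). Each window held 2 CCAAT matches, and 1 of these lies inside the shared run. Windows of 9 of the 10 members were found. STAT5-type letters, present in 8.30% of all windows, occurred among them in that of Aldh9a1 only.

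The other members are spread over the genome (GRCm38). Aldh2 lies on chromosome 5 from 121566027 to 121593824 on the minus strand, and Aldh1b1 on chromosome 4 from 45799022 to 45804604 on the plus strand. Aldh3a2 lies on chromosome 11 from 61223417 to 61267464 on the minus strand. Aldh1l1 lies on chromosome 6 from 90486427 to 90600203 and Aldh9a1 on chromosome 1 from 167349991 to 167368532, both on the plus strand. Across the 10 members 7 other genes overlap 4 of them, and none of these exceeded 0.759 FPKM in any liver.

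None of the 10 genes changed by the test across all genes. In limma on log2(FPKM + 1), adjusted over the 12022 genes, 0 of 10 members passed 0.05 in either direction, with adjusted p between 0.360 and 0.962, and 0 had an unadjusted p under 0.05. Across all genes 3 passed (0.025%), 0.00832% higher and 0.0166% lower in knockouts, and 13.9% had an unadjusted p under 0.05, 6.83% higher and 7.06% lower. With the replicate number as a block 0 of all genes passed, and 1 member (Aldh3a2) had an unadjusted p under 0.05, against 16.1% of all genes. A voom fit on the recovered reads called 0 members, with 0 at an unadjusted p under 0.05. Of the 10 means, 7 were lower in the knockouts, a count that was 9 with array weights, 6 under quantile normalization and 5 when scaled by total reads. The median log2 fold change of the 10 was -0.14, where all tested genes had a median of -0.0081 with 51.9% lower, and genes averaging 10 FPKM or more had a median of -0.04 with 57.6% lower. In 2 members, Aldh2 and Aldh9a1, every knockout lay below every control, as in 10.6% of all genes, and in 0 did every knockout lie above, as in 9.2% of all genes; groups were apart in either direction in 19.8% of all genes.

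**Figure D1:**
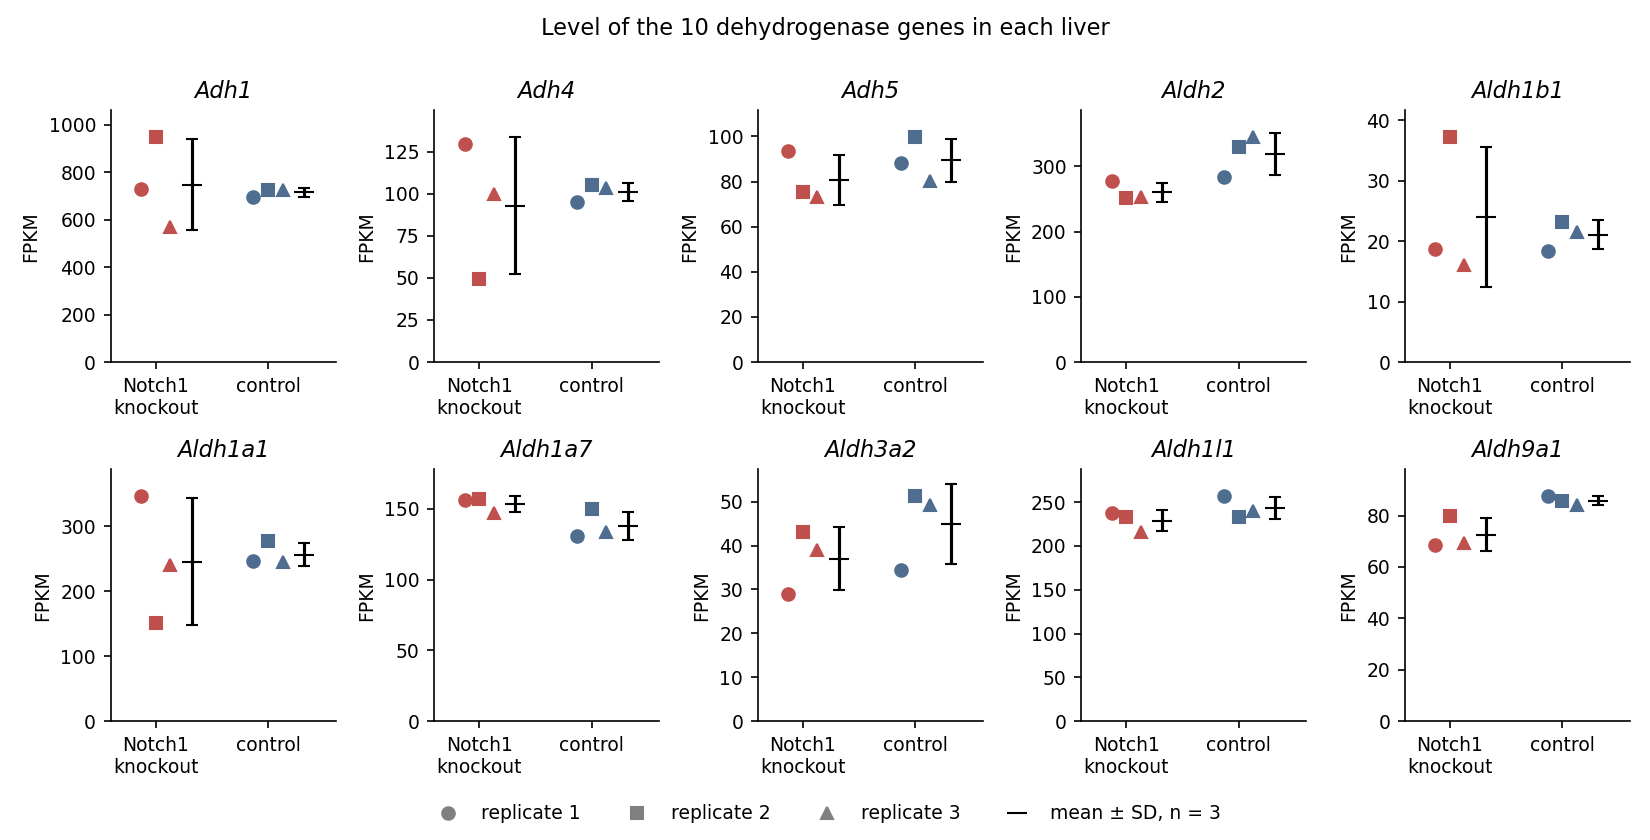
FPKM of each gene in each liver, knockouts left and controls right, with every axis starting at 0. Points are livers (shape gives the replicate number) and bars are mean ± SD of 3. In Aldh2 and Aldh9a1 all knockouts lie below all controls, and knockout 2 is the highest of the 6 livers in Adh1 and Aldh1b1 and the lowest in Adh4 and Aldh1a1. It is also highest in Aldh1a7 and lowest in Aldh2, there close to the next liver.

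Adh1, which oxidises ethanol and retinol, measured 730.3, 948 and 568 FPKM in knockouts 1 to 3, against 695, 727 and 725 FPKM in controls 1 to 3. The controls lay within a narrow band, with knockouts 1 and 2 above it, knockout 1 only just, and knockout 3 below it. Means were 749 ± 191 FPKM in knockouts and 716 ± 17.7 FPKM in controls (SD, n = 3 each), with a log2 fold change of 0.03 (SE 0.20, 95% interval -0.44 to 0.51, limma adjusted p = 0.962). The interval reaches from a ratio of 0.737 to one of 1.42, so a moderate change in either direction is not detectable with these livers.

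Adh4, a class II alcohol dehydrogenase of liver that also accepts retinol, measured 129.8, 49.3 and 99.6 FPKM in the knockouts, against 95.1, 105 and 104 FPKM in the controls. Knockout 1 was the highest of the 6 livers and knockout 2 the lowest, so the knockouts enclosed the controls. The log2 fold change was -0.23 (SE 0.32, 95% interval -0.998 to 0.54, adjusted p = 0.806).

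Adh5, the class III enzyme, which handles formaldehyde and S-nitrosoglutathione, measured 93.4, 75.2 and 73.2 FPKM in the knockouts, against 88.2, 99.6 and 80.4 FPKM in the controls. Knockouts 2 and 3 were the 2 lowest livers, while knockout 1 lay among the controls. Its log2 fold change was -0.15 (SE 0.14, adjusted p = 0.679).

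Aldh2, the mitochondrial enzyme for acetaldehyde and for aldehydes from lipid peroxidation, measured 277, 251 and 253 FPKM in the knockouts, against 283, 329.5 and 344 FPKM in the controls. All knockouts lay below all controls, though knockout 1 and control 1 nearly met. Means were 261 ± 14.6 FPKM in knockouts and 319 ± 32.0 FPKM in controls, 18.3% lower in the knockouts. The log2 fold change of -0.29 (SE 0.13, 95% interval -0.58 to 0.0080) did not pass over all genes (adjusted p = 0.368, and 0.310 to 0.642 over the alternatives).

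Aldh1b1, a second mitochondrial acetaldehyde dehydrogenase, measured 18.7, 37.2 and 16.0 FPKM in the knockouts, against 18.4, 23.1 and 21.6 FPKM in the controls. Knockout 2 was the highest liver and knockout 3 the lowest. The log2 fold change was 0.09 (SE 0.29, 95% interval -0.60 to 0.78, adjusted p = 0.923).

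Aldh1a1, the cytosolic retinal dehydrogenase, measured 346, 150.5 and 239.7 FPKM in the knockouts, against 247, 277 and 244 FPKM in the controls. As in Adh4, knockout 1 was the highest and knockout 2 the lowest of the 6. The log2 fold change was -0.14 (SE 0.28, adjusted p = 0.872), with a sign that turned when scaled by total reads (0.0030). Its neighbour Aldh1a7 measured 156, 157 and 147 FPKM in the knockouts, against 131, 149 and 133 FPKM in the controls. Control 2 lay above knockout 3, so the groups overlapped, and the log2 fold change was 0.15 (SE 0.11, 95% interval -0.10 to 0.40, adjusted p = 0.570).

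Aldh3a2, the fatty aldehyde dehydrogenase of the endoplasmic reticulum, whose loss causes Sjögren-Larsson syndrome in humans, measured 29.0, 43.1 and 38.9 FPKM in the knockouts, against 34.4, 51.2 and 49.2 FPKM in the controls. The groups overlapped through control 1, but within each same-numbered pair the knockout was lower, by 0.24, 0.24 and 0.33 on the log2 scale. The log2 fold change of -0.27 had an SE of 0.20 without the block (unadjusted p = 0.222, adjusted p = 0.601), and with it an unadjusted limma p of 0.0281 and an adjusted p of 0.249. Aldh2 and Aldh9a1 were also lower in all 3 pairs, and Aldh1a7 was higher in all 3. The share of all genes with the same sign in all 3 pairs was not computed, so nothing particular to these members follows.

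Aldh1l1, an abundant folate enzyme of hepatocytes, measured 238, 233 and 215 FPKM in the knockouts, against 256, 233 and 240.04 FPKM in the controls. The groups overlapped, and the log2 fold change of -0.09 (SE 0.11, 95% interval -0.34 to 0.17, adjusted p = 0.781) turned positive under quantile normalization (0.01) and when scaled by total reads (0.06). Aldh9a1, which oxidises 4-trimethylaminobutyraldehyde on the way to carnitine, measured 68.5, 80.03 and 69.3 FPKM in the knockouts, against 87.5, 85.6 and 84.1 FPKM in the controls. All knockouts lay below all controls, and knockout 2 came nearest to them. Its means were 15.3% lower in the knockouts, with a log2 fold change of -0.24 (SE 0.10, 95% interval -0.48 to 0.0023) that did not pass over all genes (adjusted p = 0.360, and 0.239 to 0.766 over the alternatives).

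**Figure D2:**
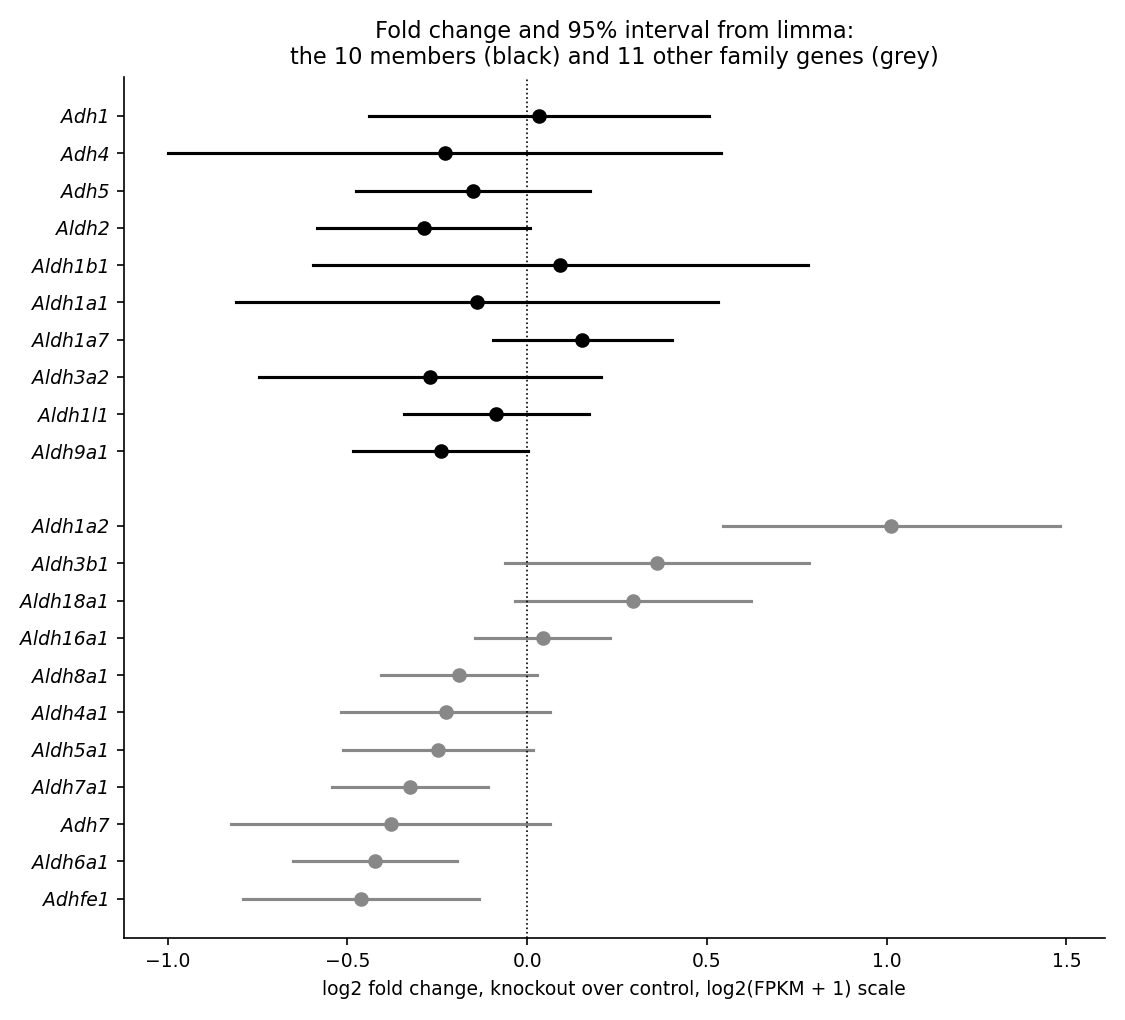
Log2 fold change, knockout over control, on the log2(FPKM + 1) scale with 95% intervals from limma for the 10 genes in black and 11 other tested genes of both families in grey. All 10 black intervals reach 0; Aldh1a2 has the highest value of the grey ones.

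In 5 of the genes the SD among knockout livers was over 3 times that among controls. The share of all genes past that ratio was not computed, so the count is not read as particular to them. The SD of log2(FPKM + 1) over 3 livers was 0.37 in knockouts and 0.036 in controls for Adh1, and 0.71 in knockouts and 0.077 in controls for Adh4. It was 0.60 in knockouts and 0.099 in controls for Aldh1a1, and 0.62 in knockouts and 0.16 in controls for Aldh1b1. For Aldh9a1 it was 0.12 in knockouts and 0.028 in controls. In 7 of the 10 genes the knockout SD was the larger, as it was in 55.9% of all tested genes and 65.7% of genes averaging 10 FPKM or more, so the count is near that of abundant genes. Aldh1a7, Aldh2 and Aldh3a2 were the 3 with a smaller SD in knockouts. In all 10 genes the liver farthest from the control mean was a knockout, in 6 of them knockout 2; that measure favours the knockouts, since the controls make up their own mean.

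**Figure D3:**
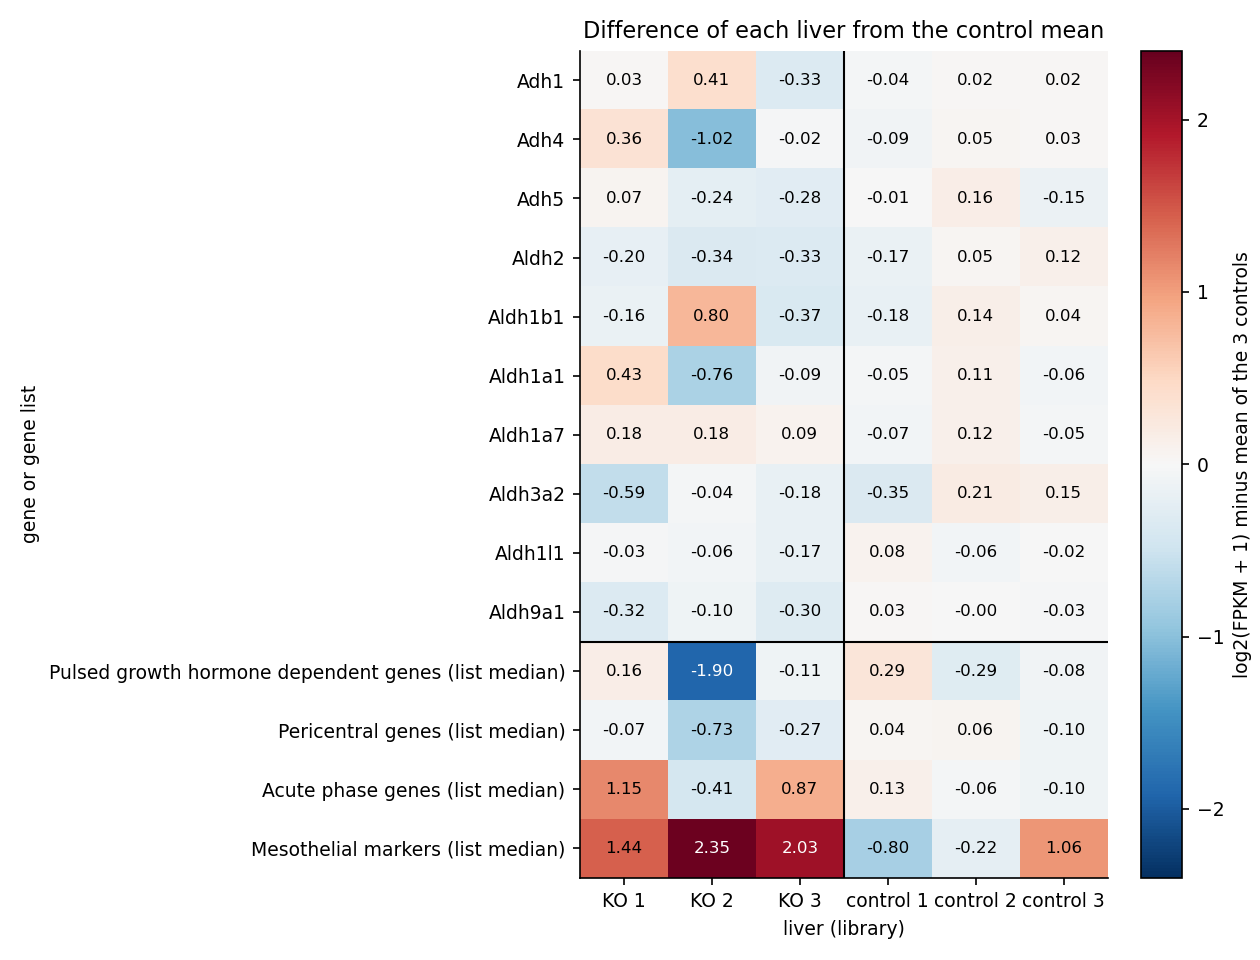
Difference of each liver from the mean of the 3 controls in log2(FPKM + 1), with the 10 genes above and the median of 4 gene lists below. Knockout 2 reads -1.02 in Adh4, -0.76 in Aldh1a1, 0.41 in Adh1 and 0.80 in Aldh1b1, beside -1.90 in genes that depend on pulsed growth hormone.

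Knockout 2 was the highest of the 6 livers in Adh1 and Aldh1b1 and the lowest in Adh4 and Aldh1a1. Its difference from the control mean was -1.02 for Adh4 and -0.76 for Aldh1a1, but 0.41 for Adh1 and 0.80 for Aldh1b1, all on the log2 scale. Knockout 1 had 0.36 and 0.43 for Adh4 and Aldh1a1, the opposite sign. Without knockout 2 the log2 fold changes of these 4 genes changed sign. They became 0.17 for Adh4, 0.17 for Aldh1a1, -0.15 for Adh1 and -0.26 for Aldh1b1. Knockout 2 was also highest in Aldh1a7 (156.58 FPKM, with 156.32 in knockout 1) and lowest in Aldh2 (251.2 FPKM, with 253.0 in knockout 3). There it lay close to the next liver, and both genes kept their sign without it (0.14 and -0.26). The 4 genes are named because knockout 2 stood further out in them. Their fold changes were small, so the changes of sign follow largely from the choice. In the same liver the median difference of 21 genes that depend on pulsed growth hormone was -1.90, against 0.16 and -0.11 in knockouts 1 and 3 and -0.29 to 0.29 in the controls. That of 18 tested genes expressed around the central vein was -0.73, against -0.07 in knockout 1, -0.27 in knockout 3 and -0.10 to 0.064 in the 3 controls. The median of 22 acute phase genes was -0.41 there, against 1.15 and 0.87 in knockouts 1 and 3. What part these had in the dehydrogenase values was not tested.

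Ratios of 2 genes within a liver do not depend on scaling between libraries, though their size depends on the annotated gene lengths. The pairs below were chosen after their values were seen. Adh1 over Adh4 was 5.63, 19.2 and 5.70 in knockouts 1 to 3, against 7.31, 6.92 and 7.001 in controls 1 to 3. Aldh1a1 over Aldh1a7 was 2.21, 0.961 and 1.63 in the knockouts, against 1.88, 1.85 and 1.83 in the controls. In both, knockouts lay on either side of the 3 controls. Aldh1a1 and Aldh1a7 are the pair whose start regions are identical in 94.7% of 150 bases. Whether these regions had a part in the ratio was not tested. The 2 genes could share part of their reads, as stated above, which adds uncertainty to this ratio. Adh4 over Adh5, which lie 12200 bases apart, was 1.39, 0.656 and 1.36 in the knockouts, against 1.08, 1.06 and 1.29 in the controls, with knockout 2 lowest and the other knockouts above the controls. Adh1 over Aldh2 was 2.63, 3.77 and 2.24 in the knockouts, against 2.46, 2.21 and 2.10 in the controls, and knockout 3 lay among the controls. Aldh2 over Aldh1b1, the mitochondrial pair, was 14.8, 6.76 and 15.8 in the knockouts, against 15.4, 14.2 and 16.0 in the controls, with knockout 2 alone apart. In that liver Aldh1a1 was the fifth of the 10 genes by level and Adh4 the eighth, where by group means Aldh1a1 stood above Aldh1l1 and Aldh1a7, and Adh4 above Adh5 and Aldh9a1.

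**Figure D4:**
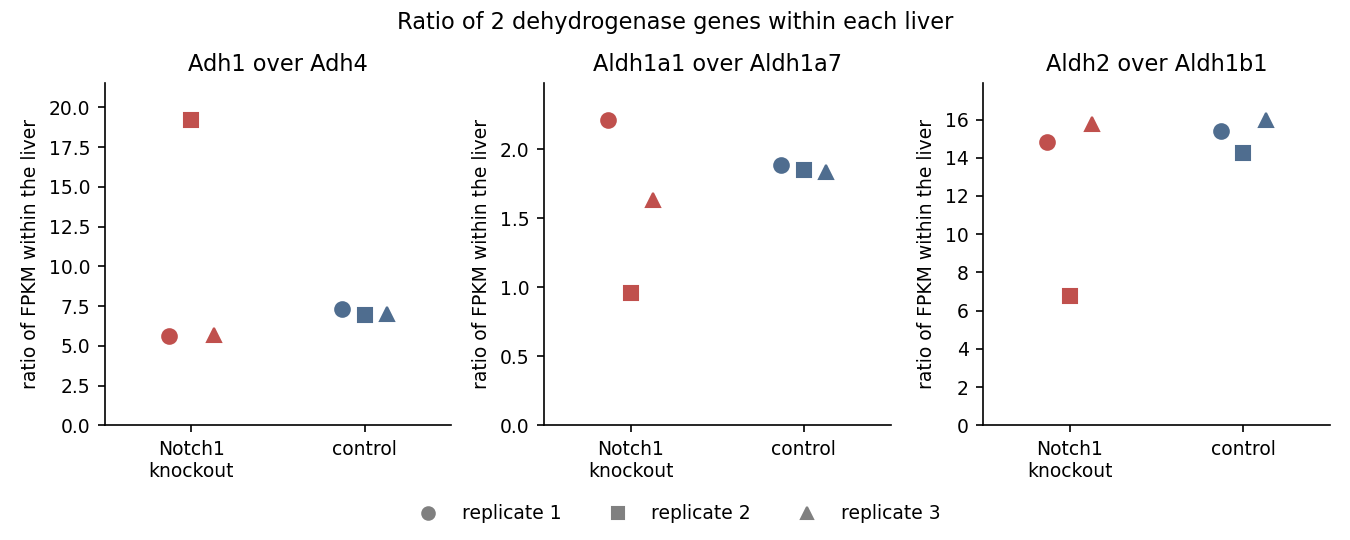
Ratio of FPKM of 2 genes within each liver, knockouts left and controls right, axes from 0. The 3 controls span 6.92 to 7.31, 1.83 to 1.88 and 14.2 to 16.0, while knockout 2 reads 19.2, 0.961 and 6.76.

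Of the other genes of both families, 11 of 18 passed the filter and 0 passed the test in either direction, with 1 higher and 3 lower at an unadjusted p under 0.05, where 6.83% of all genes were higher and 7.06% lower. Aldh3b2 was listed at 0 in all 6 livers. The median log2 fold change of the 11 was -0.23. In 4 every knockout lay below every control (10.6% of all genes), and in 2 every knockout lay above (9.2% of all genes). Aldh6a1, a mitochondrial enzyme of valine breakdown, measured 51.4, 45.3 and 45.0 FPKM in the knockouts, against 64.7, 63.3 and 62.6 FPKM in the controls (log2 fold change -0.42, adjusted p = 0.165). Aldh7a1, which acts in lysine breakdown, measured 79.9, 81.2 and 76.6 FPKM, against 96.1, 101 and 102 FPKM in the controls (-0.33, adjusted p = 0.210). Adhfe1, an iron-dependent mitochondrial alcohol dehydrogenase that acts on hydroxyacids, measured 26.6, 22.2 and 29.4 FPKM, against 39.3, 38.0 and 31.4 FPKM in the controls (-0.46, adjusted p = 0.232). All 3 lay lower in every knockout than in any control, as did Aldh8a1 of tryptophan breakdown, and none passed over all genes.

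Aldh1a2, the main retinal dehydrogenase of the embryo and a gene of mesothelium, had the highest fold change of the 11. It measured 1.27, 1.65 and 1.99 FPKM in the knockouts, against 0.177, 0.0827 and 0.718 FPKM in the controls, on 3 to 77 reads. The log2 fold change was 1.01 (SE 0.20, adjusted p = 0.120). Other limma fits that tested this gene gave it adjusted p values between 0.0434 and 0.337. The smallest came from leaving out control 3, the control with the most Aldh1a2, where the log2 fold change was 1.22. That fit called 70 genes in the whole table, where the main fit called 3. As in the summed mesothelial markers, every knockout lay above every control, and control 3 was the highest control. Otherwise the order differed: Aldh1a2 was highest in knockout 3 and lowest in control 2, the summed markers in knockout 2 and control 1. Msln measured 36.6, 60.7 and 41.8 FPKM in the knockouts, against 2.02, 3.90 and 19.1 FPKM in the controls, and 17 of 19 tested markers had every knockout above every control. The summed level of the 21 markers was 510.2, 799 and 689 FPKM in knockouts and 207, 249.7 and 383 FPKM in controls, and their part in the Aldh1a2 values was not tested. Bile duct markers also had higher means in all 5 tested of 13, with every knockout above every control in 3. Their summed level was 27.0, 30.0 and 36.8 FPKM in knockouts and 19.7, 16.4 and 17.7 FPKM in controls. Like Aldh1a2 it was highest in knockout 3 and lowest in control 2, but control 1 was the highest control. A part of these markers was not tested either. Aldh1a2 stood well below Aldh1a1 in level in all livers.

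Lists of neighbouring pathways were read in the same fit, and 0 genes passed in any of them. The genes named from each list are those with the smallest p, so that they tend to have groups apart follows from the choice. The counts over each list stand against 10.6% of all genes with every knockout below and 9.2% with every knockout above. Abundant genes leaned lower: of 3179 averaging 10 FPKM or more, 379 were lower and 164 higher at an unadjusted limma p under 0.05. The hepatocyte marker list had a median log2 fold change of -0.23, with 13 of 15 means lower. Genes expressed around the central vein had one of -0.39, with 16 of 18 lower, and periportal genes one of -0.05, with 11 of 20 lower. Lower medians are thus not particular to the pathway lists. In the side routes of ethanol and acetate 5 of 6 genes were tested, 4 with lower means, 3 with every knockout below every control and 0 with every knockout above, and the median log2 fold change was -0.39. Cyp2e1, the microsomal ethanol oxidase, measured 1276, 623 and 967 FPKM in the knockouts, against 1797, 1899 and 1688 FPKM in the controls (adjusted p = 0.204). Catalase (Cat), which oxidises ethanol with hydrogen peroxide, measured 988, 799 and 877 FPKM, against 1242, 1211.5 and 1186 FPKM in the controls (adjusted p = 0.245). Acot12, which splits acetyl-CoA into acetate, measured 22.2, 26.8 and 26.9 FPKM, against 30.8, 36.0 and 33.2 FPKM (adjusted p = 0.225), and the groups of these 3 genes did not overlap. Acss3 values overlapped. Cyp2e1, also a gene of the area around the central vein, was lowest in knockout 2, and Adh1 was highest there.

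Of 34 genes of retinoid handling 26 were tested, 19 with lower means, 6 with every knockout below every control and 1 with every knockout above, and the median log2 fold change was -0.13. The named members were retinol dehydrogenases of the short-chain family, which share the first step with Adh1 and Adh4. Rdh7 averaged 444 ± 37.2 FPKM in knockouts and 585 ± 23.4 FPKM in controls (log2 fold change -0.40, adjusted p = 0.247). Rdh5 averaged 3.16 ± 0.415 FPKM in knockouts and 4.38 ± 0.369 FPKM in controls, and Rdh10 4.08 ± 0.224 FPKM in knockouts and 5.07 ± 0.345 FPKM in controls. Rdh13 averaged 0.855 ± 0.125 FPKM in knockouts and 1.30 ± 0.0963 FPKM in controls. These 4 are among the 6 genes with groups apart, with adjusted p from 0.223 to 0.284.

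Of 28 genes of other carbonyl reduction and oxidation 25 were tested, 20 with lower means, 8 with every knockout below every control and 0 with every knockout above, and the median log2 fold change was -0.12. Aox3, an aldehyde oxidase of mouse liver, measured 49.5, 41.6 and 54.4 FPKM in the knockouts, against 86.7, 105 and 83.2 FPKM in the controls (log2 fold change -0.90, SE 0.14, adjusted p = 0.105). Aox1, of the same family, averaged 5.35 ± 0.0737 FPKM in knockouts and 7.35 ± 1.32 FPKM in controls. Akr1c6, an aldo-keto reductase, averaged 544 ± 139 FPKM in knockouts and 889 ± 146 FPKM in controls, and Dhdh, dihydrodiol dehydrogenase, 12.1 ± 1.57 FPKM in knockouts and 16.1 ± 0.417 FPKM in controls. These 4 are among the 8 genes with groups apart, and their adjusted p reached 0.279.

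Of 19 genes of formaldehyde and folate metabolism, the surroundings of Adh5 and Aldh1l1, 17 were tested, 9 with lower means, 4 with every knockout below every control and 1 with every knockout above, and the median of -0.04 was near that of all genes. Dmgdh and Sardh, mitochondrial enzymes whose reactions release formaldehyde units, averaged 90.3 ± 10.3 and 77.6 ± 4.68 FPKM in knockouts, against 122 ± 10.4 and 96.2 ± 4.65 FPKM in controls. Ftcd, which passes the formimino group of histidine breakdown to folate, averaged 88.5 ± 9.43 FPKM in knockouts and 115 ± 6.06 FPKM in controls. Gart, of purine synthesis, averaged 4.5955 ± 0.342 FPKM in knockouts and 3.85 ± 0.266 FPKM in controls, with every knockout above every control. Adjusted p of these 4 ran from 0.221 to 0.390.

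Beside Aldh3a2, 10 of 11 genes of fatty aldehyde metabolism and alpha-oxidation were tested, 9 with lower means, 4 with every knockout below every control and 0 with every knockout above, with a median log2 fold change of -0.33. Phyh, the enzyme that starts alpha-oxidation of phytanic acid, averaged 787 ± 70.8 FPKM in knockouts and 1076 ± 106 FPKM in controls (adjusted p = 0.267). Acox2 and Acox3, peroxisomal oxidases of branched chains, averaged 44.3 ± 6.96 and 1.86 ± 0.233 FPKM in knockouts, against 58.2 ± 3.18 and 2.59 ± 0.299 FPKM in controls. Hacl1, which cleaves the chain after Phyh, averaged 6.96 ± 1.34 FPKM in knockouts and 9.47 ± 1.34 FPKM in controls, with overlapping groups. Around Aldh9a1, 12 of 14 genes of carnitine and polyamine metabolism were tested, 6 with lower means, 1 with every knockout below every control and 0 with every knockout above, with a median of -0.02. Bbox1, the last enzyme of carnitine synthesis, measured 40.1, 28.5 and 26.6 FPKM in the knockouts, against 41.7, 46.1 and 39.7 FPKM in the controls, and knockout 1 lay among the controls (adjusted p = 0.318). Slc22a5, the carnitine transporter, averaged 5.74 ± 1.603 FPKM in knockouts and 7.86 ± 0.361 FPKM in controls, and Maob and Sat1 overlapped between groups.

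**Figure D5:**
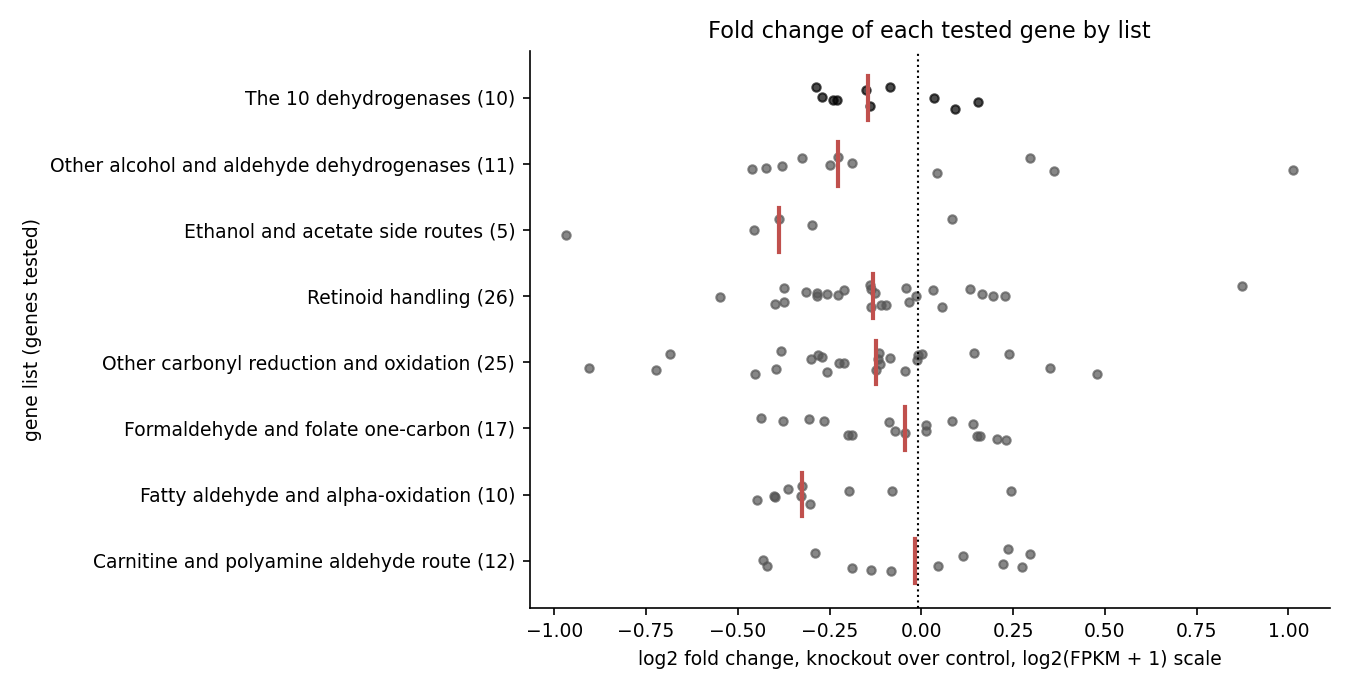
Log2 fold change, knockout over control, of each tested gene in 8 lists, with the number tested in brackets, red bars at list medians and a dotted line at the median of all tested genes. List medians run from -0.39 for the ethanol and acetate side routes to -0.02 for the carnitine and polyamine route.

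Likeness was measured for Aldh9a1 and Aldh2, the members with the smallest unadjusted p, as the root mean square difference over 6 livers of log2 differences from the control mean, among 4994 other genes averaging 5 FPKM or more. Nearest to Aldh9a1 were Atp5a1 (0.039), Uroc1 (0.049) and Trap1 (0.049). Nearest to Aldh2 were Sec14l2 (0.044), Sgms2 (0.047) and Gzf1 (0.059). Atp5a1 measured 310.4, 339 and 317 FPKM in the knockouts, against 388, 392 and 371 FPKM in the controls.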

How the data were processed

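The authors deposited 1 table of FPKM values for 6 liver libraries with gene names, coordinates and lengths. HISAT2 2.0.5, featureCounts 1.5.0-p3 and GRCm38 are named in the submitters' processing notes, without their settings. Multiplied by gene length, 100% of the values came out as whole reads (tolerance 0.1 read), which gave the depth (15612924 to 17511961 per library). The step followed median-ratio size factors (0.911 to 1.22), so scaling between libraries is already in the deposited FPKM. The labels do not say whether the 3 samples of a group came from separate animals, so p-values reflect only the variation between these samples, which may be technical.

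The main test was limma 3.58.1 (eBayes with trend, R 4.3.3) on log2(FPKM + 1) of genes averaging 0.5 FPKM or more, two-sided, adjusted by Benjamini-Hochberg over all 12022 genes, threshold 0.05. The pseudocount understates changes of low genes. Gene lists, members and tests were chosen with earlier results of these data known. Named genes are the 10 members, up to 4 genes with the smallest p per pathway list, defining markers, Notch1, and the 3 genes most like each of the 2 members with the smallest p. Adh6a, Adh6b and Adh7 were added for their position, and Aldh8a1 and Aldh3b2 after their values were seen.

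Deviations from the group mean in same-numbered knockout and control libraries had correlations across genes of 0.315, 0.164 and 0.101. Other combinations gave -0.254 to 0.110, so the value of the libraries numbered 3 lay within their range. Any pairing rests on these values, since the labels state no shared litter or day, and the replicate block was only an alternative fit. The 17 alternatives covered pseudocounts, filters, scaling, weights, eBayes settings, the block, voom on recovered reads, and leaving out each library.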

Additional observations from a re-analysis of the deposited data

How the results depend on the processing

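No member passed under any of the 17 alternatives, with adjusted p from 0.239 to 0.997; up to 2 had an unadjusted p under 0.05. Aldh2, Aldh9a1, Aldh3a2, Adh5 and Aldh1a7 kept their sign in all 17. Adh1 and Aldh1b1 turned negative with array weights (-0.082 and -0.093) and without knockout 2. Aldh1l1 turned positive under quantile normalization (0.012) and scaled by total reads (0.056), and Aldh1a1 scaled by total reads (0.0030). Leaving out 1 library gave -0.15 to 0.22 for Adh1 and -0.52 to 0.17 for Adh4. It gave -0.43 to 0.17 for Aldh1a1 and -0.26 to 0.32 for Aldh1b1. Among these fits each sign changed only without knockout 2, the extreme liver in these genes.

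Scaling by total reads moved the median of all genes by 0.105. The members' median was then -0.0032, and -0.041 under quantile normalization. The medians of the other dehydrogenases, ethanol side routes, retinoid, carbonyl, formaldehyde, fatty aldehyde and carnitine lists were then -0.087, -0.25, -0.00138, -0.025, 0.057, -0.21 and 0.11.

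Leaving out 1 library gave medians of -0.18 to -0.0996 for the members, -0.33 to -0.18 for the other dehydrogenases, -0.44 to -0.299 for ethanol side routes, -0.17 to -0.043 for retinoid, -0.22 to -0.11 for carbonyl, -0.077 to 0.025 for formaldehyde, -0.39 to -0.26 for fatty aldehyde and -0.077 to 0.033 for carnitine genes. The other dehydrogenases had 0 to 1 gene called (Aldh1a2, without control 3). Genes called over the whole table were 3, but 1 with a pseudocount of 0.1, 0 with no filter on low values, 0 with the replicate block, 16 by voom and 0 to 70 without 1 library (70 without control 3, 30 without knockout 2). The replicate block changed no other call, and the causes of these differences were not tested.

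These livers limit what is detectable: the 95% interval of Adh4 reaches from a ratio of 0.501 to 1.45.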
